A study of Homo sapiens with 8 samples.

Results

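Messenger RNA was compared between cells differentiated with PMA and cells that received Ceefourin 2 together with PMA. The members were chosen by their titles, which gave 4 of the 8 libraries of the study. PMA replicates 1 and 2 formed one group, and PMA plus Ceefourin 2 replicates 1 and 2 formed the other. All cells were MEG-01, a human megakaryoblast line, grown in RPMI medium with fetal bovine serum and glutamine. Both compared groups carried PMA at 100 nM for 48 h, and the second group also carried 20 µM Ceefourin 2 over the same 48 h. The other 4 libraries were 2 of untreated cells and 2 of cells given Ceefourin 2 alone for 48 h, for which no source used here states a dose. Nothing in the labels says that replicates came from separate cultures, so p-values measure only the spread between these libraries, which may be technical. The model is 1 cultured leukaemia line, so its levels describe that line.

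PMA (phorbol 12-myristate 13-acetate) is a diacylglycerol mimic that activates protein kinase C and pushes megakaryoblast lines towards a megakaryocyte-like state. Ceefourin 2 is a small-molecule inhibitor of ABCC4, also called MRP4. This ATP-driven exporter removes cyclic AMP, cyclic GMP, prostaglandins and nucleotide analogues from cells, and in platelets it lies in dense granule and plasma membranes. Cyclic nucleotides restrain platelet activation through protein kinases A and G. The comparison asks what the inhibitor does to the transcriptome while the cells differentiate.

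The 4 libraries held 48595107 to 89950886 expected counts each, and 17314 genes were tested. Levels are library-scaled CPM (counts relative to library size, with TMM scaling), and each pair of values is given in the order replicate 1 and replicate 2. Of all counts, 9.61% and 4.53% came from the mitochondrial genome in PMA libraries and 8.32% and 4.94% with Ceefourin 2, so replicate 1 was higher in both groups. All 13 mitochondrial transcripts kept log2 fold changes between -0.21 and 0.20 between the groups, and none was called. Their median of -0.084 balanced unlike replicates, since it was 0.653 without PMA replicate 1, -0.523 without PMA replicate 2, and -0.502 and 0.236 without inhibitor replicate 1 or 2. Of 12 megakaryocyte markers, 11 averaged above 1 CPM in PMA cells and 10 with Ceefourin 2, and their sum was 3063 to 3330 CPM and 3187 to 3480 CPM. PF4, a defining platelet chemokine, was at 0 counts in PMA cells. In bulk RNA, fewer cells of a type and less RNA per cell cannot be told apart.

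ABCC4 (ENSG00000125257.16), which lies on chromosome 13 at 95019829 to 95301475 on the minus strand of GRCh38, was measured at 594 and 545 CPM in PMA cells and 697 and 632 CPM with Ceefourin 2. Both inhibitor libraries lay above both PMA libraries. The log2 fold change was 0.22 (SE 0.10), and the gene was not called (edgeR adjusted p = 0.371). With replicate number as a block the adjusted p was 0.0306. An inhibitor of the transporter protein need not alter its transcript, so this value checks no label.

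Across all tested genes, 159 rose and 158 fell at an edgeR adjusted p below 0.05. These are 0.918% and 0.913% of all tested genes. At least 2-fold changes were seen in 87 of the genes that rose and 92 of those that fell, and the median log2 fold change over all tested genes was 0.0022. By class, 293 of the called genes were protein-coding, 19 were long noncoding and 5 were transcribed pseudogenes. Libraries of the 2 groups did not overlap in any of the 317 called genes. The same held for 7856 of all 17314 tested genes, so separation by itself is common. With replicate number as a block, 821 genes were called higher and 661 lower (8.56% of the tested genes in all), and these included each of the 317 in the same direction. Leaving out PMA replicate 1 brought the calls to 49 higher and 60 lower, and leaving out PMA replicate 2 to 21 and 19. In the inhibitor group, the fit without replicate 1 called 12 and 9 and the fit lacking replicate 2 called 36 and 36. Without untreated replicate 1 or untreated replicate 2, which enter only through the shared spread, 103 genes were called higher. Leaving out PMA replicate 1 and PMA plus Ceefourin 2 replicate 1 together, the libraries with the high mitochondrial share, left 1 library against 1. Nearly all calls were then lost, which cannot be told apart from the loss of replicates. Both replicate 2 libraries were not left out together.

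Of the 85 called genes that the naming rule gave, 16 stayed called whichever single library was left out. Those that rose were KIT, CYP1B1, KDR, GBP4, MMP2, ABCG2, RGS9, IL24 and TNFAIP8L3. Those that fell were FCER1A, CCL23, CSPG4, GPR85, PRKAR2B, PLEK and AVPR1A. The highest adjusted p among these fits was 0.0086 for KIT and 0.0086 for CYP1B1, and 0.0498 for AVPR1A and 0.0498 for PLEK. Of the 85 genes, 46 stayed called when PMA replicate 1 was left out and 26 when PMA replicate 2 was. The counts were 16 and 38 when inhibitor replicate 1 or inhibitor replicate 2 was left out. All 85 kept their direction in each of these fits, which the lack of overlap between the 2 groups all but fixed beforehand. The other 69 lost the call in at least 1 of the 8 fits, and 32 did so in 4 or more. Of the 23 lists below with a call, 12 held 0 calls in at least 1 of these fits, and the median turned sign in 11 of the 30 lists.

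**Figure D1:**
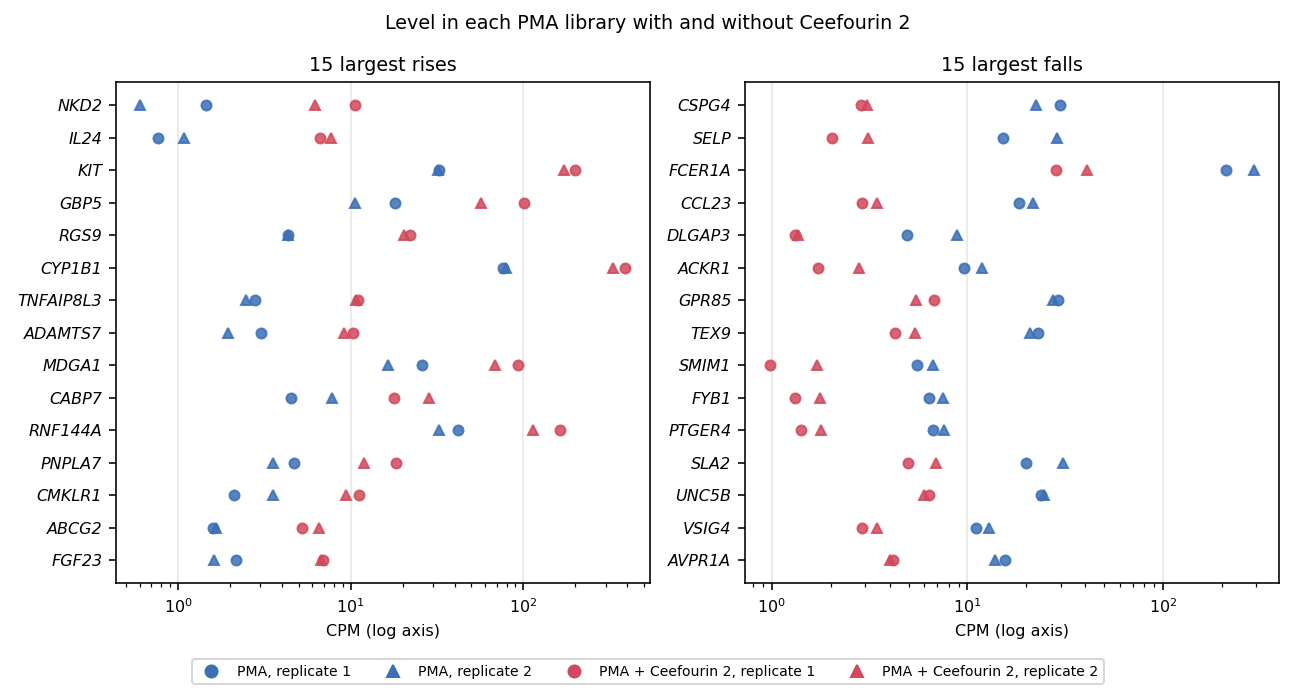
Level in CPM on a log axis of the 15 largest rises (left) and 15 largest falls (right) among the eligible called genes, with 1 point per library. Blue points are PMA libraries, red points PMA plus Ceefourin 2, circles replicate 1 and triangles replicate 2. In each row the red and blue points do not overlap, which the naming rule required.

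Targets of the aryl hydrocarbon receptor (AhR) had the highest median change of the 30 gene lists examined. AhR is a ligand-activated transcription factor that enters the nucleus, pairs with ARNT and binds DNA at the xenobiotic response element. Its known targets include the cytochrome P450 genes CYP1A1 and CYP1B1, the ADP-ribosyltransferase gene TIPARP and the repressor gene AHRR, the last of which encodes an inhibitor of AhR itself. Upstream sequence is shown for targets that rose, since the core of that element can be read in it. The core searched was GCGTG on either strand (CACGC when read on the gene's strand), set in capitals, over the 250 bases before each RefSeq start (build GRCh38.p14). Each line runs 5′ to 3′ on the gene's own strand.
CYP1A1: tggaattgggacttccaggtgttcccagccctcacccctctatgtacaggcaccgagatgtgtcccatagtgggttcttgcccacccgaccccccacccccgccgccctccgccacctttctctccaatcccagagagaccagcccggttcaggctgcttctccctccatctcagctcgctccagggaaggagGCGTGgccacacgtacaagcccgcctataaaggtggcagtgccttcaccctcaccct
TIPARP: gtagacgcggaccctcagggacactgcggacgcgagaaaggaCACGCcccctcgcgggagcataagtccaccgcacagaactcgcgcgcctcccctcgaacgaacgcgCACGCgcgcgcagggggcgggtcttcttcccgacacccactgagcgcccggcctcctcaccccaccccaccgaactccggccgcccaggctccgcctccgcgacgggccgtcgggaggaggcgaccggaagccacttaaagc
AHRR: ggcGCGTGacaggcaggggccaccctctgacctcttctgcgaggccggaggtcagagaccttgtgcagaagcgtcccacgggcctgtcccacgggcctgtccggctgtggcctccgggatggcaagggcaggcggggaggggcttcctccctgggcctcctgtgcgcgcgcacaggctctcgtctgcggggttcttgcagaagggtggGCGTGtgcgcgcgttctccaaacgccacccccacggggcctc
The CYP1A1 stretch, chr15:74725529-74725778 on the minus strand, held 1 match that begins 57 bases before the start. TIPARP, chr3:156674340-156674589 on the plus strand, held 2 matches, at 208 and 142 bases before the start, while the other TIPARP starts in the table held none. AHRR, chr5:322360-322609 on the plus strand, held 2 matches, at 247 and 42 bases. The other AHRR start, chr5:321464-321713, held 1 match, at 30 bases. For TIPARP and AHRR the stretch with the most matches is shown. The AHRR gene model that holds the name in the reference was not called without the block, as given below. Over all 35116 start sites in the table, 32.2% held a match in the same 250 bases, so a match by itself is common. Of the 13 listed AhR genes, 9 had an entry, with 13 such stretches in all, of which 6 held a match (46.2%). CYP1B1 was not among the entries.

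CYP1B1 (chromosome 2, 38066973 to 38109902), which oxidises polycyclic hydrocarbons and oestrogens, stood at 76 and 79.2 CPM in PMA cells and at 389 and 330.4 CPM with Ceefourin 2. The inhibitor libraries were both far above the PMA libraries (log2 fold change 2.21 with SE 0.10, edgeR adjusted p = 0.000222). CYP1A1, the classic AhR-induced hydroxylase, was scarce, with 0.475 and 0.973 CPM against 4.57 and 5.16 CPM (log2 fold change 2.77 with SE 0.37, edgeR adjusted p = 0.0151). It was higher in both inhibitor libraries, and its call was lost in 3 of 8 fits that left out a library, with adjusted p up to 0.0813. TIPARP rose from 32 and 32.6 to 81.8 and 66.4 CPM (log2 fold change 1.20 with SE 0.13, edgeR adjusted p = 0.00665), again without overlap.

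AHRR was split by the authors' counting between 2 overlapping gene models, so reads could be shared and each value is uncertain. The model with most reads (ENSG00000286169.1) rose from 24.9 and 20.5 to 58.8 and 48.8 CPM (log2 fold change 1.24 with SE 0.17, edgeR adjusted p = 0.0163). The model that holds the name in the reference (ENSG00000063438.17) had 0.746 and 0.886 and then 1.97 and 1.83 CPM, with a log2 fold change of 1.22 that was not called (adjusted p = 0.156, or 0.0496 with the block). AHR itself, the receptor, had 41.7 and 33.2 CPM in PMA cells and 63.5 and 42.5 CPM with Ceefourin 2. The lower inhibitor library lay just above the higher PMA library, and the log2 fold change of 0.50 was not called (adjusted p = 0.34, 0.0225 with the block). Its partner ARNT stood at 40.4 and 41.6 against 44.1 and 44.6 CPM (adjusted p = 0.652), and NQO1, a quinone reductase that AhR and NRF2 both induce, at 3.7 and 2.1 against 3.19 and 2.41 CPM (log2 fold change -0.07, adjusted p = 0.96). Of the 9 tested AhR genes 3 rose and 0 fell, with a median log2 fold change of 1.20 against 0.0022 over all genes. The second AHRR model, which rose, stands outside this count, since the list holds the model named in the reference. With the block, 5 rose. The block called 8.56% of all tested genes (821 higher and 661 lower), a share to set beside each blocked count of a list, here and below. Leaving out 1 library gave 1 to 3 rises (1 without inhibitor replicate 1, and 0 without both replicate 1 libraries), and the median was 0.797 on log2(TPM + 0.1) and 0.605 on log2(TPM + 1). TIPARP lost its call without PMA replicate 2 or inhibitor replicate 1, and the called AHRR model without any 1 of the 4 libraries compared. CYP1A2, ALDH3A1, UGT1A6 and SCIN had too few counts to test.

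Among 19 tested ABC transporters, 1 rose and 0 fell, and the median log2 fold change was -0.165. ABCG2, the breast cancer resistance protein that exports xenobiotics and porphyrins, went from 1.59 and 1.66 to 5.2 and 6.52 CPM (log2 fold change 1.85 with SE 0.17, edgeR adjusted p = 0.00406). The inhibitor libraries fell on either side of the untreated level of 6.38 and 5.99 CPM, and both PMA libraries lay under it. The 18 other tested transporters ranged from -1.02 to 1.08, ABCC4 among them, and none was called without the block. With the block 2 of all 19 rose, ABCG2 among them, and 4 fell.

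Genes of cyclic AMP signalling (cyclases, phosphodiesterases, kinase subunits, receptors) mostly stayed uncalled, with 0 of 46 higher and 2 lower at a median of 0.083. PRKAR2B, a regulatory subunit that holds protein kinase A inactive, fell from 283 and 303 to 108 and 131 CPM (log2 fold change -1.29 with SE 0.11, edgeR adjusted p = 0.00307). Both inhibitor libraries lay well below both PMA libraries. PDE5A, the cyclic GMP phosphodiesterase of platelets, fell from 64.1 and 65.7 to 23.5 and 28.3 CPM (log2 fold change -1.32 with SE 0.14, edgeR adjusted p = 0.00629). Untreated cells held 82.9 and 85 CPM of PRKAR2B and 1.6 and 1.32 CPM of PDE5A, and every library with PMA was above these levels. With the block 4 genes of the list rose and 6 fell.

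Growth factor and cytokine receptors held as many rises as any list here, with 5 of 34 tested members higher, 0 lower and a median of 0.37. With the block 14 were higher and 0 lower, and 2 were higher without PMA plus Ceefourin 2 replicate 1. KIT, the stem cell factor receptor of progenitors and mast cells (chromosome 4, 54657918 to 54740715), was at 32.4 and 32.2 CPM with PMA and at 199 and 172 CPM with PMA plus Ceefourin 2. The replicates of each group lay close together and the groups far apart (log2 fold change 2.52 with SE 0.10, edgeR adjusted p = 0.000171). KDR, a receptor for vascular endothelial growth factor, rose from 30.2 and 32.6 to 106 and 111 CPM (log2 fold change 1.78 with SE 0.09, edgeR adjusted p = 0.000339). PDGFRA, a receptor for platelet-derived growth factor, rose from 51.1 and 60.4 to 113 and 113 CPM (log2 fold change 1.02 with SE 0.11, edgeR adjusted p = 0.00577). Its call was lost without PMA plus Ceefourin 2 replicate 1, where the adjusted p was 0.0657.

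PDGFRA, KIT and KDR are neighbours on chromosome 4, with starts at 54229097, 54657918 and 55078259. Genes on either side were not called. CHIC2, before PDGFRA, had a log2 fold change of 0.58 (adjusted p = 0.246), and SRD5A3, beyond KDR, had 0.01 (adjusted p = 0.983); both were picked for position after values were seen. Elsewhere, NRP1, a co-receptor for vascular endothelial growth factor and semaphorins, rose from 46.2 and 35.5 to 90.1 and 75.4 CPM (log2 fold change 1.02 with SE 0.19, edgeR adjusted p = 0.0439). FLT4, the lymphatic receptor of that family, rose from 6.99 and 7.59 to 13 and 12.2 CPM (log2 fold change 0.79 with SE 0.14, edgeR adjusted p = 0.0364). Both of these calls held in 2 of 8 fits that left out a library. Of 10 endothelial markers, KDR was the 1 called (3 rose with the block), VWF was not called, and CLDN5 was at 0 in all groups, with the summed level at 1080 to 1166 CPM in PMA cells and 1203 to 1210 CPM with the inhibitor. The part of an endothelial-like state in these rises was not tested.

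Mast cell and basophil genes held falls and no rise, with 0 of 16 tested members higher, 3 lower and a median of -0.76, while 5 of the 13 uncalled members had positive values. With the block 6 were lower. In fits without PMA replicate 1, PMA replicate 2 or inhibitor replicate 1, 1 was lower, and the median was -0.42 without PMA replicate 2, -0.36 without inhibitor replicate 1 and -0.316 on log2(TPM + 1). FCER1A (chromosome 1, 159289714 to 159308224), the alpha chain that binds IgE in the high-affinity receptor, had 208 and 293 CPM in PMA cells and 28.3 and 40.6 CPM with Ceefourin 2. Every inhibitor library lay under the untreated level of 62.3 and 62.1 CPM, and every PMA library far above it (log2 fold change -2.86 with SE 0.21, edgeR adjusted p = 0.00204). HDC, histidine decarboxylase, which makes histamine, fell from 534 and 480.0 to 279 and 259 CPM (log2 fold change -0.91 with SE 0.11, edgeR adjusted p = 0.0104). HPGDS, the haematopoietic prostaglandin D synthase, was low and fell from 1.71 and 1.82 to 0.386 and 0.629 CPM (log2 fold change -1.75 with SE 0.26, edgeR adjusted p = 0.0207). The mast cell protease CPA3 had 10.5 and 16.6 against 4.87 and 8.26 CPM and was not called (adjusted p = 0.228, 0.000934 with the block). MS4A2, the beta chain of the IgE receptor, had 0.0339 and 0.0865 against 0 and 0.0484 CPM, and CMA1, the chymase, was at 0 in all groups. The 9 mast cell and basophil markers summed to 757.8 to 794.1 CPM in PMA cells and 311.4 to 314.8 CPM with the inhibitor. HDC and FCER1A made up most of both sums, so the gap largely repeats these 2 calls. Of the 6 uncalled tested markers, 2 had positive and 4 negative values. KIT, which mast cells also carry, moved oppositely.

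Erythroid and blood group genes were lower in 5 of 37 tested members and higher in 1, at a median of -0.29. The block gave 13 lower and 2 higher, and the fits without PMA replicate 2 or inhibitor replicate 1 gave 0 of each, with medians of -0.155 and -0.145. CA1, the carbonic anhydrase of red cells, fell from 26.3 and 37.6 to 8.83 and 11.2 CPM (log2 fold change -1.66 with SE 0.23, edgeR adjusted p = 0.0163). HBD, the delta globin gene, whose reads can be shared with HBB, fell from 33.4 and 39 to 10.6 and 15 CPM (log2 fold change -1.49 with SE 0.17, edgeR adjusted p = 0.00865). SMIM1, which carries the Vel antigen, fell from 5.53 and 6.7 to 0.975 and 1.7 CPM (log2 fold change -2.16 with SE 0.28, edgeR adjusted p = 0.0139). ERMAP, the Scianna antigen gene, went from 23 and 26.7 to 10.9 and 14.3 CPM, and ACKR1, the Duffy antigen and chemokine scavenger, from 9.56 and 11.8 to 1.73 and 2.79 CPM, and both fell. DMTN, an actin-bundling protein of the red cell skeleton, was the member that rose, from 210.4 and 200.3 to 341 and 299.6 CPM (log2 fold change 0.64 with SE 0.09, edgeR adjusted p = 0.0151). The 9 erythroid markers summed to 296.7 to 300.3 CPM in PMA cells and 171 to 232.2 CPM with the inhibitor, without overlap, and none was called on its own without the block (3 fell with it). CA1 had 181 and 231 CPM in untreated cells and was thus already low under PMA.

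Platelet surface receptors split, with 2 of 35 tested members higher and 2 lower, at a median of 0.017. CD9, a tetraspanin abundant on platelets, rose from 19.9 and 17.8 to 63.7 and 55.6 CPM (log2 fold change 1.66 with SE 0.16, edgeR adjusted p = 0.00412), with no overlap. F2R, the thrombin receptor PAR1, rose from 405 and 370.4 to 794 and 626 CPM (log2 fold change 0.87 with SE 0.14, edgeR adjusted p = 0.0273). SELP, P-selectin, the granule membrane adhesion receptor (chromosome 1, 169588849 to 169630193), fell from 15.2 and 28.6 to 2.03 and 3.11 CPM (log2 fold change -3.07 with SE 0.33, edgeR adjusted p = 0.00629). The PMA libraries differed from each other, and both exceeded both inhibitor libraries. CLEC1B, the podoplanin receptor CLEC-2, was scarce and fell from 1.2 and 2.79 to 0.325 and 0.314 CPM (log2 fold change -2.63 with SE 0.47, edgeR adjusted p = 0.0391). All 4 calls were lost without PMA plus Ceefourin 2 replicate 1. Those of CD9, F2R and CLEC1B were also lost without PMA replicate 2, and over 8 such fits F2R lost its call in 3 (adjusted p up to 0.209) and CLEC1B in 5 (up to 0.258).

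Of 11 tested megakaryocyte markers 0 were called, 8 had negative values and the median was -0.468, with a range of -1.51 to 0.98. With the block 1 rose and 4 fell. ITGA2B, the integrin chain CD41, had 1539.9 and 1716 CPM in PMA cells and 1584 and 1859.8 CPM with Ceefourin 2, and the groups overlapped (log2 fold change 0.08, adjusted p = 0.898). Its partner ITGB3, or CD61, had 909.5 and 908 against 1081 and 1038 CPM (log2 fold change 0.22, adjusted p = 0.325). GP1BA, a chain of the von Willebrand factor receptor, had 28.4 and 38.8 against 19.6 and 22.6 CPM and was not called (log2 fold change -0.67, adjusted p = 0.19). With the block, 8 of the 35 receptors rose and 5 fell.

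Granule cargo showed 1 rise in 21 tested genes and 0 falls, at a median of 0.27, with 7 and 1 under the block. PDGFA, the A chain of platelet-derived growth factor and a ligand of the receptor encoded by PDGFRA, rose from 3.46 and 3.11 to 9.28 and 8.62 CPM (log2 fold change 1.44 with SE 0.20, edgeR adjusted p = 0.0169). VWF, the multimeric adhesion protein of alpha granules, had 5.41 and 4.41 against 10.5 and 8.92 CPM (log2 fold change 0.98, adjusted p = 0.163, 0.0292 with the block).

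Among 38 tested genes of platelet signalling and the proplatelet cytoskeleton, 2 rose and 5 fell, at a median of -0.081, and with the block 5 rose and 9 fell. PLEK, pleckstrin, the main protein kinase C substrate of platelets, had 531 and 669 CPM in PMA cells and 199 and 205 CPM with Ceefourin 2 (log2 fold change -1.57 with SE 0.13, edgeR adjusted p = 0.00307). Both inhibitor libraries lay above the untreated 97.6 and 94.4 CPM and below both PMA libraries. The adaptor gene FYB1 fell from 6.38 and 7.52 to 1.32 and 1.77 CPM (log2 fold change -2.16 with SE 0.26, edgeR adjusted p = 0.00981). RASGRP2, the calcium-dependent activator of the small GTPase Rap1, fell from 94.6 and 118 to 45 and 55.8 CPM (log2 fold change -1.08 with SE 0.14, edgeR adjusted p = 0.0148). SYK, the tyrosine kinase below the collagen and CLEC-2 receptors, fell from 42 and 48 to 26.2 and 29 CPM (log2 fold change -0.71 with SE 0.10, edgeR adjusted p = 0.0181). RGS18, a brake on platelet G protein signalling that is also counted among the RGS genes, fell from 25.1 and 35 to 10.1 and 13.7 CPM (log2 fold change -1.33 with SE 0.20, edgeR adjusted p = 0.0218). PTGS1, cyclooxygenase 1, rose from 661 and 646 to 944 and 891 CPM (log2 fold change 0.49), and STIM1, the calcium store sensor, rose from 149 and 159.6 to 213 and 216 CPM (log2 fold change 0.48). The groups were separate for both, and both calls held in 2 of 8 fits that left out a library. Without PMA replicate 2 or inhibitor replicate 1, PLEK was the only call of the list that remained.

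Transcription factors of the megakaryocyte and erythroid lineages were called higher in 3 and lower in 1 of 39 tested members, at a median of 0.056. SPI1, or PU.1, the myeloid factor, fell from 46 and 62.1 to 19.5 and 25.6 CPM (log2 fold change -1.26 with SE 0.18, edgeR adjusted p = 0.0181). ETS1, an ETS factor of early megakaryocytes and endothelium, rose from 23.4 and 22.9 to 61 and 67.7 CPM (log2 fold change 1.47 with SE 0.16, edgeR adjusted p = 0.00739). CEBPA, a granulocytic factor, rose from 3.8 and 3.24 to 11.1 and 8.63 CPM (log2 fold change 1.48 with SE 0.28, edgeR adjusted p = 0.0483), and RUNX3 rose from 8.44 and 9.86 to 17.1 and 15.1 CPM (log2 fold change 0.82 with SE 0.16, edgeR adjusted p = 0.0474). The calls of CEBPA and RUNX3 held in 2 of 8 fits that left out a library, that of ETS1 in 4 and that of SPI1 in 5. GATA1, the master factor of both lineages, had 237 and 255 against 189 and 212 CPM, lower in both inhibitor libraries yet not called (log2 fold change -0.30, adjusted p = 0.219, 0.0147 with the block). GFI1B, a repressor needed by both lineages, had 414 and 509 against 375 and 466 CPM, with overlap (adjusted p = 0.84). With the block 9 rose and 8 fell.

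Secreted mediators and their receptors went both ways, with 4 of 33 tested chemokine and cytokine genes higher and 3 lower, at a median of 0.26. IL24, a cytokine of the IL-10 family, rose from 0.763 and 1.08 to 6.64 and 7.68 CPM (log2 fold change 2.97 with SE 0.28, edgeR adjusted p = 0.00406). LIF, leukaemia inhibitory factor, rose from 130.0 and 90.6 to 274 and 237 CPM (log2 fold change 1.21 with SE 0.16, edgeR adjusted p = 0.0148), and IL1A, an alarmin cytokine, rose from 7.94 and 6.98 to 23.9 and 21.4 CPM (log2 fold change 1.60 with SE 0.24, edgeR adjusted p = 0.0216). TNF was scarce and rose from 0.509 and 0.584 to 1.95 and 1.92 CPM (log2 fold change 1.83 with SE 0.29, edgeR adjusted p = 0.0482). Its call held in 2 of 8 fits that left out a library. CCL23, a chemokine for monocytes, fell from 18.3 and 21.5 to 2.88 and 3.46 CPM (log2 fold change -2.64 with SE 0.19, edgeR adjusted p = 0.00204). CCL4, also called MIP-1 beta, whose reads can be shared with CCL4L2, fell from 135 and 177 to 32.3 and 58.9 CPM (log2 fold change -1.77 with SE 0.29, edgeR adjusted p = 0.0273). CCL23 and CCL4 both lie on chromosome 17 and had only 0.0831 and 0.163 and 0.0208 and 0.114 CPM in untreated cells. ACKR1, counted also with the blood groups, was the third that fell. With the block 7 were higher and 4 lower.

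Interferon-stimulated genes held 5 rises of 43 tested members and 0 falls, yet the median of the list was -0.092 and 26 of the 38 uncalled members had negative values. The sign of that median turned on single libraries, being 0.374 without PMA replicate 2, 0.213 without inhibitor replicate 1, -0.299 without PMA replicate 1 and -0.275 without inhibitor replicate 2. Guanylate-binding proteins, GTPases that restrict intracellular pathogens, made up 3 of the 5. GBP4 rose from 476 and 432 to 1165 and 996 CPM (log2 fold change 1.25 with SE 0.11, edgeR adjusted p = 0.00307), GBP5 from 18 and 10.6 to 101 and 57.1 CPM (log2 fold change 2.46 with SE 0.31, edgeR adjusted p = 0.0126) and GBP2 from 52.8 and 55.4 to 116 and 110.1 CPM (log2 fold change 1.06 with SE 0.18, edgeR adjusted p = 0.0349). They are neighbours on chromosome 1, starting at 89106132 (GBP2), 89181148 (GBP4) and 89258950 (GBP5), and similar sequence between family members can divide reads. In GBP5 replicate 1 was above replicate 2 in both groups, and the groups still did not overlap. RSAD2, the antiviral enzyme viperin, rose from 26 and 31.3 to 63.4 and 63.5 CPM (log2 fold change 1.15 with SE 0.13, edgeR adjusted p = 0.00908), and PSMB9, an immunoproteasome subunit, rose from 6.82 and 6.33 to 14.4 and 12 CPM (log2 fold change 1.01 with SE 0.16, edgeR adjusted p = 0.0224). With the block 10 rose and 1 fell, and 1 rose without inhibitor replicate 1.

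Matrix, proteoglycan and protease genes rose in 4 and fell in 1 of 31 tested members, at a median of 0.15 (6 and 1 with the block, 1 and 1 without inhibitor replicate 1). MMP2, gelatinase A, rose from 16.6 and 16.9 to 44.5 and 41.8 CPM (log2 fold change 1.37 with SE 0.10, edgeR adjusted p = 0.00204). MMP1, interstitial collagenase, rose from 196 and 215 to 445 and 511 CPM (log2 fold change 1.22 with SE 0.19, edgeR adjusted p = 0.0222). SERPINB2, the plasminogen activator inhibitor PAI-2, was among the abundant transcripts and rose from 1475 and 1129 to 2829.9 and 2767 CPM (log2 fold change 1.10 with SE 0.20, edgeR adjusted p = 0.0391). ADAMTS7, a metalloproteinase, rose from 3.02 and 1.95 to 10.3 and 9.14 CPM (log2 fold change 1.96 with SE 0.29, edgeR adjusted p = 0.0187). CSPG4, the proteoglycan NG2, showed the largest fall under the naming rule, from 29.7 and 22.3 to 2.86 and 3.06 CPM (log2 fold change -3.13 with SE 0.25, edgeR adjusted p = 0.00275). Its inhibitor libraries lay close together, far below both PMA libraries. Of 20 tested integrins, ITGA9 rose from 1.15 and 0.994 to 2.58 and 3.13 CPM and ITGAX, CD11c, fell from 10.2 and 10.4 to 4.69 and 4.81 CPM. The call of ITGA9 held in 2 of 8 fits that left out a library. With the block 4 integrins rose and 3 fell. NKD2, an antagonist of the WNT transducer Dishevelled, rose from 1.46 and 0.605 to 10.6 and 6.2 CPM (log2 fold change 2.99 with SE 0.41, edgeR adjusted p = 0.0159) and was the 1 call among 32 tested WNT genes, of which 6 rose and 1 fell with the block. It lost its call in 2 of 8 fits that left out a library, with adjusted p up to 0.0973.

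In signalling below the receptors, RGS proteins end G protein signals by speeding GTP hydrolysis. RGS9 rose from 4.32 and 4.35 to 22.1 and 20.5 CPM (log2 fold change 2.30 with SE 0.19, edgeR adjusted p = 0.00307), while RGS18, above, and RGS1 fell, RGS1 from 20.9 and 29.1 to 8.14 and 12.9 CPM (log2 fold change -1.24 with SE 0.24, edgeR adjusted p = 0.0487). The call of RGS1 was lost in all 8 fits that left out a library. With the block 4 of 16 tested RGS genes rose and 5 fell. Of 25 tested genes of protein kinase C and diacylglycerol, the direct arm of PMA action, 0 rose and 2 fell. PRKCB, the beta isoform of the kinase, fell from 1706 and 1705 to 1223 and 1234 CPM (log2 fold change -0.47 with SE 0.08, edgeR adjusted p = 0.0349), and the diacylglycerol kinase gene DGKI fell from 1 and 1.6 to 0.223 and 0.375 CPM (log2 fold change -2.07 with SE 0.39, edgeR adjusted p = 0.0452), a call that was also lost in all 8 of those fits. With the block 2 of the 25 rose and 3 fell. The list of NF-kB subunits and targets held 1 rise and 1 fall in 20 tested genes. TNFAIP8L3, a lipid transfer protein and not an NF-kB subunit, rose from 2.8 and 2.49 to 11 and 10.7 CPM (log2 fold change 2.04 with SE 0.16, edgeR adjusted p = 0.00275). Whether it is an NF-kB target was not tested. SOD2, the mitochondrial superoxide dismutase, fell from 211 and 221 to 132 and 135 CPM (log2 fold change -0.69 with SE 0.08, edgeR adjusted p = 0.00935). With the block 2 of the 20 rose and 2 fell.

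Single calls marked several other lists. MCL1, a survival protein needed by megakaryocytes, rose from 421 and 402 to 567 and 602 CPM (log2 fold change 0.51 with SE 0.08, edgeR adjusted p = 0.0216) among 17 BCL2 family genes. TNFRSF10B, the TRAIL death receptor, rose from 55.3 and 42.9 to 80.4 and 75.2 CPM (adjusted p = 0.0495) among 17 p53 targets, and E2F7, a repressor of cell cycle genes, rose from 10.6 and 9.62 to 23.7 and 23.6 CPM (adjusted p = 0.0355) among 20 cyclins and inhibitors. In the lysosome list of 31 genes, the protease gene CTSL rose from 454 and 400.3 to 702 and 769 CPM (log2 fold change 0.78 with SE 0.10, edgeR adjusted p = 0.0139), while GUSB, beta-glucuronidase, fell from 38.2 and 45.1 to 22.2 and 24.4 CPM and CTSA, protective protein cathepsin A, fell from 146 and 164 to 102 and 110.1 CPM. AKR1C1, a ketosteroid reductase with near-identical copies, fell from 7.22 and 5.49 to 1.81 and 2.74 CPM (adjusted p = 0.0422) among 25 NRF2 and xenobiotic genes. Its call held in 2 of 8 fits that left out a library, and that of TNFRSF10B in 1. With the block 6 BCL2 family genes rose and 1 fell, 3 p53 targets rose and 2 fell, 3 of the cyclin list rose, 3 lysosome genes rose and 4 fell, and 1 NRF2 gene rose and 4 fell. Among markers of other cells, 1 of 7 tested osteoclast genes was called, and 1 of 8 tested monocyte and macrophage genes. The uncalled osteoclast genes had 4 positive and 2 negative values, and the uncalled monocyte and macrophage genes 3 and 4. NFATC1, an osteoclast factor, rose from 36.1 and 33.1 to 63.5 and 61.3 CPM (adjusted p = 0.0343), and VSIG4, a complement receptor of macrophages, fell from 11.1 and 12.9 to 2.88 and 3.43 CPM (log2 fold change -1.92 with SE 0.19, edgeR adjusted p = 0.00501).

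Other lists held no call. These were 35 ATF4 and unfolded protein genes (median 0.12), 29 cholesterol and LXR genes (-0.024), 47 DNA replication and mitosis genes (-0.089, range -0.315 to 0.18), 32 early response and MAPK feedback genes (0.28), 26 purine and thiopurine genes (-0.085), 13 mitochondrial transcripts (-0.084) and 7 metallothioneins (-0.036). With the block 8 early response genes rose and 1 fell, 2 purine genes rose and 1 fell, 1 ATF4 gene rose, 1 cholesterol gene fell, and the replication, mitochondrial and metallothionein lists still held none. Over 30 lists, 808 distinct genes were tested, of which 39 rose and 29 fell. Over all tested genes 0.918% rose and 0.913% fell, and with the block 8.56% were called in either direction. The lists were chosen with earlier results of these data known, so a larger share in them is no result about these pathways.

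Markers of cells that a MEG-01 culture might resemble moved as follows. Neutrophil markers summed to at most 0.303 CPM and lymphoid markers to at most 1.22 CPM in the 4 libraries. The monocyte and macrophage list summed to 562.4 to 625.4 CPM in PMA cells and 508.9 to 575.8 CPM with the inhibitor, with CD163, MARCO and C1QB at 0 in both. Stem and progenitor markers summed to 105.3 to 114.8 CPM and 235.7 to 263.8 CPM. KIT alone went from 32.4 and 32.2 to 199 and 172 CPM, a mean gain larger than this gap. Of the 6 uncalled tested members, 3 had positive and 3 negative values, and the list median was 0.039. Osteoclast markers summed to 60.94 to 67.97 CPM and 96.93 to 102.4 CPM, with CALCR at 0 in both. The part of these cell states in the changes above was not tested.

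**Figure D2:**
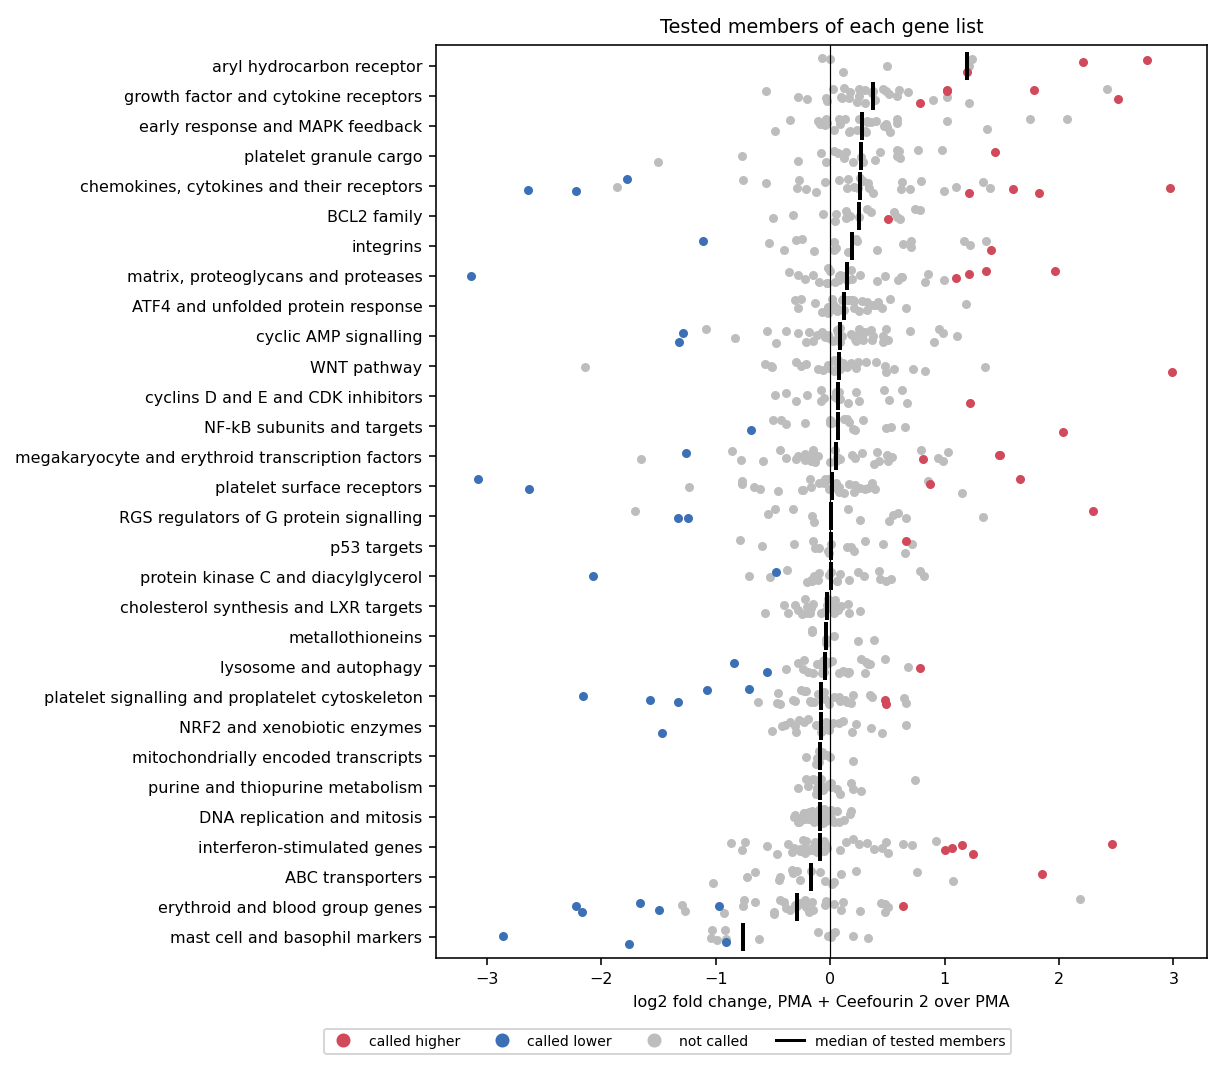
Log2 fold change of PMA plus Ceefourin 2 over PMA for each tested gene (points) of 30 lists (rows), ordered by the list's median (black bar). Red points were called higher, blue points lower and grey points not called; AhR genes have the highest median at 1.20 and mast cell and basophil genes the lowest at -0.76.

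The remaining genes among the 15 largest rises and 15 largest falls belong to no list. Of 132 eligible rises and 126 eligible falls, those named ranged from 1.84 to 2.99 and from -3.13 to -1.85 on the log2 scale. RNF144A, an E3 ubiquitin ligase, rose from 42 and 32.4 to 162 and 113 CPM (log2 fold change 1.89 with SE 0.22, edgeR adjusted p = 0.00865). MDGA1, a GPI-anchored adhesion protein of neurons, rose from 25.8 and 16.5 to 93.4 and 68.3 CPM (log2 fold change 1.93 with SE 0.25, edgeR adjusted p = 0.014). The calcium-binding protein gene CABP7 rose from 4.53 and 7.83 to 17.7 and 28.2 CPM, the lysophospholipase gene PNPLA7 from 4.7 and 3.55 to 18.4 and 11.9 CPM, the chemerin receptor gene CMKLR1 from 2.1 and 3.55 to 11.2 and 9.33 CPM, and FGF23, the phosphate-lowering hormone, from 2.15 and 1.62 to 6.88 and 6.71 CPM. In each of these the libraries were separate, which the naming rule required, and in CABP7 replicate 2 was the higher of both groups.

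Falls among the 15 largest that belong to no list were as follows. GPR85, an orphan receptor, fell from 29.1 and 27.3 to 6.72 and 5.43 CPM (log2 fold change -2.22 with SE 0.17, edgeR adjusted p = 0.00275), and PTGER4, the prostaglandin E2 receptor EP4, which raises cyclic AMP, fell from 6.63 and 7.61 to 1.4 and 1.79 CPM (log2 fold change -2.15 with SE 0.20, edgeR adjusted p = 0.00406). AVPR1A, the vasopressin V1a receptor, fell from 15.6 and 13.9 to 4.14 and 4.04 CPM (log2 fold change -1.85 with SE 0.16, edgeR adjusted p = 0.00307), and UNC5B, a netrin receptor, fell from 23.9 and 24.7 to 6.34 and 5.97 CPM (log2 fold change -1.98 with SE 0.31, edgeR adjusted p = 0.0224). SLA2, an adaptor that dampens antigen receptor signals, fell from 19.9 and 30.7 to 4.95 and 6.87 CPM, DLGAP3, a synaptic scaffold protein, from 4.88 and 8.89 to 1.32 and 1.37 CPM, and TEX9 from 22.9 and 20.9 to 4.26 and 5.39 CPM. None of these groups overlapped, which the naming rule required.

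Ceefourin 2 was also given to cells without PMA, and that comparison shares no library with the one above. It called 291 genes, 1.68% of those tested, with 166 higher and 125 lower. Of the 159 genes that rose in PMA-treated cells, 45 also rose without PMA, which is 28.3% of the first list and 27.1% of the second. Of the 158 that fell, 30 also fell without PMA, 19.0% of the first list and 24.0% of the second, and 3 genes were called in opposite directions. The fold change had the same sign without PMA for 137 of the 159 and 138 of the 158, against 62.8% of all tested genes. Across the 17314 tested genes the 2 sets of log2 fold changes had a Pearson r of 0.30, which is a description, since genes are not independent and all libraries share 1 fit. The doses may differ between these comparisons.

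KIT stood at 37 and 38.4 CPM in untreated cells and 200.4 and 179 CPM with Ceefourin 2 alone, a log2 fold change of 2.33 (adjusted p = 0.000147) beside 2.52 under PMA. CYP1B1 went from 53.5 and 57.7 to 353 and 333 CPM (2.63 beside 2.21) and CYP1A1 from 0.52 and 0.523 to 2.85 and 4.85 CPM (2.88 beside 2.77). KDR (1.04), GBP4 (1.21), GBP5 (2.22), MMP2 (1.41), PDGFRA (1.23), NRP1 (2.22), TIPARP (0.74), F2R (0.77), SERPINB2 (1.81) and MMP1 (1.66) also rose without PMA. FCER1A (-1.53), HPGDS (-1.28), HBD (-1.42), CA1 (-1.49), SLA2 (-1.95) and PRKCB (-0.58) also fell there. Of the 15 largest rises 7 were called in the same direction without PMA, and of the 15 largest falls 2 were. Several of these falls had little room without PMA. Untreated cells held 0.208 and 0.0653 CPM of CSPG4, 0.0831 and 0.163 CPM of CCL23 and 0.0623 and 0.0327 CPM of VSIG4. A fall from such levels could hardly be seen, so these counts do not mark those falls as particular to PMA-treated cells.

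**Figure D3:**
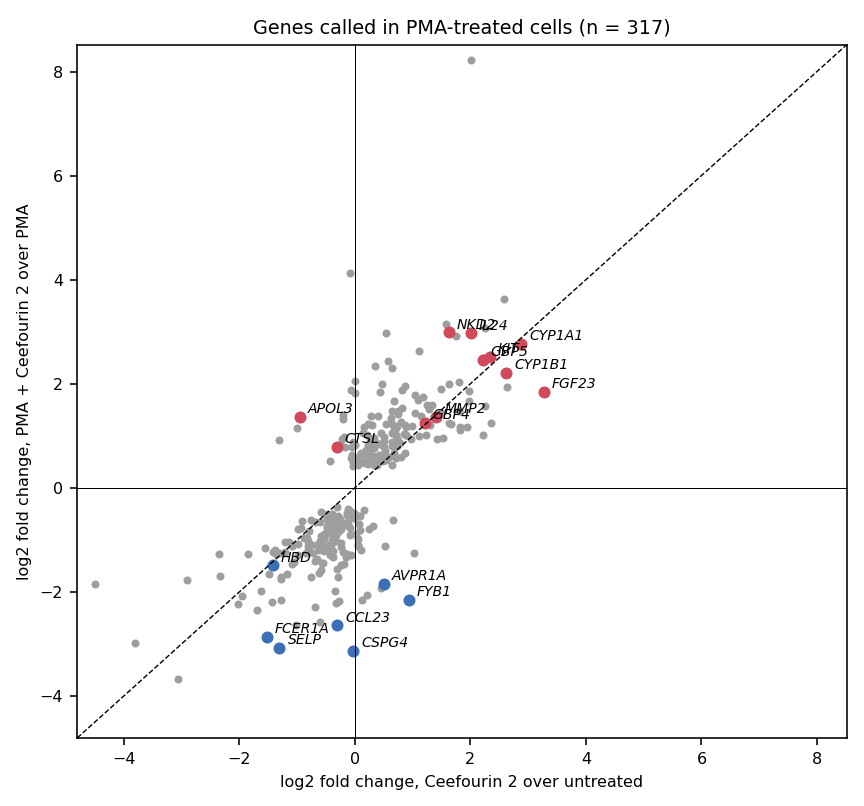
Log2 fold change with Ceefourin 2 in untreated cells (x axis) and in PMA-treated cells (y axis) for the 317 genes called in PMA-treated cells (points), with equal change on the dashed line. KIT, CYP1A1 and CYP1B1 lie near the line, while CSPG4, CCL23, AVPR1A and FYB1 are low on the y axis and between -0.30 and 0.93 on the x axis. In untreated cells those named last averaged 0.123 (CCL23) to 0.895 CPM (FYB1). At the lowest of these levels a fall could hardly be seen, while FYB1 (0.93) and AVPR1A (0.50) had positive values on the x axis.

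The difference between the effects with and without PMA was tested as an interaction, and 2 genes were called, 0.0116% of those tested, with 1234 at an unadjusted p below 0.05. APOL3, an apolipoprotein L induced by interferon, had 10.6 and 12 CPM in PMA cells and 31.8 and 26.4 CPM with the inhibitor, against 5.34 and 6.47 CPM in untreated cells and 3.1 and 3.01 CPM with Ceefourin 2 alone. It thus rose with PMA (1.36, adjusted p = 0.00669) and fell without it (-0.95, adjusted p = 0.0314), a difference of 2.31 (SE 0.22, adjusted p = 0.047). S100A4, a calcium-binding protein of motile cells, had 123 and 139.5 against 116 and 102 CPM with PMA, which was not called (-0.27, adjusted p = 0.305). Without PMA it fell from 97.4 and 101 to 27.2 and 24.1 CPM (-1.96), a difference of 1.68 (SE 0.15, adjusted p = 0.047). Both calls were lost in each of the 8 fits that left out 1 library, with adjusted p from 0.0721 to 0.239 for APOL3 and 0.0596 to 0.239 for S100A4. With the block 114 genes were called higher and 133 lower for the difference, 247 of 17314 tested, so the count depends on how replicates are treated. Of these, 54 were among the 317 genes called in PMA-treated cells. Those 317 were selected on the same libraries that enter the difference, so a larger share among them is no separate support.

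Several falls described above had large differences that the fit without the block did not call. FYB1 differed by -3.09 (adjusted p = 0.0598, 0.00696 with the block), GPR85 by -1.90 (0.0623, 0.00696) and AVPR1A by -2.35 (0.0569, 0.0131). FCER1A differed by -1.34 (0.22, 0.0398), CCL23 by -2.34 (0.22, 0.0457), PLEK by -0.99 (0.167, 0.0416), PRKAR2B by -0.86 (0.16, 0.0267) and HDC by -0.83 (0.182, 0.00877). Untreated cells held 0.727 and 1.06 CPM of FYB1, 0.395 and 0.294 CPM of AVPR1A and 0.0831 and 0.163 CPM of CCL23. At the levels of AVPR1A and CCL23 a fall without PMA could hardly be seen. FYB1 went up without PMA, to 1.46 and 1.98 CPM, a log2 fold change of 0.93 that was not called (edgeR adjusted p = 0.169). AVPR1A had 0.50 there, also not called (0.456). The differences of these genes thus join a fall with PMA and a positive value without it. CTSL differed by 1.10 (0.0744, 0.0146), KDR by 0.75 (0.145, 0.0127) and RNF144A by 1.07 (0.415, 0.00875). KIT (0.19, 0.952, 0.497) and CYP1B1 (-0.41, 0.548, 0.168) were called in neither fit.

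Some lists held calls without PMA and fewer or none with it, and no member of any list was called for the difference in the fit without the block. Erythroid and blood group genes fell in 16 of 37 tested members without PMA (median -1.07) beside 5 with it (-0.29). ATF4 and unfolded protein genes rose in 7 of 35 (0.60) beside 0 (0.12), cholesterol and LXR genes in 5 of 29 (0.57) beside 0 (-0.024), and early response genes in 4 of 32 (0.67) beside 0 (0.28). Growth factor receptors rose in 5 of 34 in each setting. Over all 17314 tested genes 166 rose and 125 fell without PMA, 1.68% in all. The lists were chosen with earlier results of these data known, so a larger share in them is no result about these pathways.

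PMA against untreated called 9281 genes, 53.6% of those tested. It shares the PMA libraries with the main comparison, so the values are only set side by side. FCER1A had a log2 fold change of 2.01 with PMA and -2.86 when Ceefourin 2 was added, PLEK 2.64 and -1.57, and PRKAR2B 1.80 and -1.29. CD9 had 7.97 and 1.66, PTGS1 3.96 and 0.49, and GBP4 1.91 and 1.25. For KIT the values were -0.22 (adjusted p = 0.0926) and 2.52, and for ABCG2 -1.92 and 1.85.

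**Figure D4:**
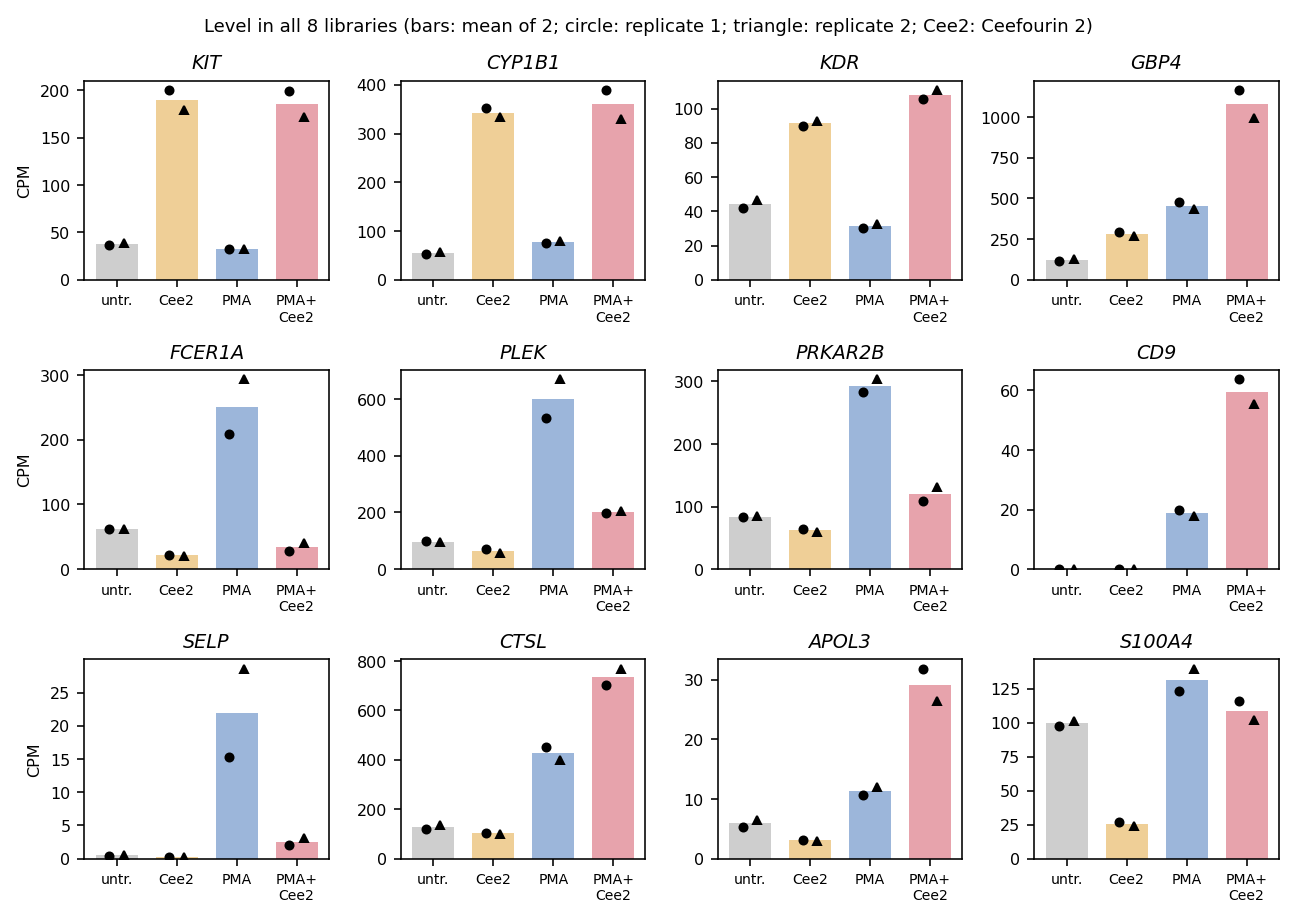
Level in CPM of 12 genes in all 8 libraries, with bars for the mean of 2 libraries, circles for replicate 1 and triangles for replicate 2. KIT and CYP1B1 are high in both groups with Ceefourin 2, FCER1A, PLEK, PRKAR2B and SELP are highest with PMA alone, and CD9, GBP4, CTSL and APOL3 are highest with PMA plus Ceefourin 2.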

How the data were processed

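MEG-01 messenger RNA was sequenced by the authors as stranded paired-end libraries. Per the submitters' processing notes, STAR 2.7 did the alignment and RSEM 1.3.1 the quantification, on hg38. No source used here states the annotation release. The deposited expected counts, estimated by the authors with RSEM per gene and not normalized, cover 60754 genes. The deposited TPM values, per the file headers also from RSEM, served as an alternative. Expected counts (7.05% to 7.83% of values per library were not whole at a tolerance of 1e-06) were rounded. The 92 spike-in rows held 0 counts.

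In R 4.3.3, edgeR 4.0.16 kept 17314 genes by filterByExpr, scaled by TMM (0.92 to 1.083) and ran quasi-likelihood tests on 1 fit of 8 libraries with a mean per group. It left 4 residual degrees of freedom, to which 3.95 were added by sharing spread across genes. The biological coefficient of variation was 13.6%. A gene was called at a Benjamini-Hochberg adjusted p below 0.05 over all tested genes, and an SE is the absolute log2 fold change over the square root of F. Alternatives used DESeq2 1.42.0, limma 3.58.1 on log2(TPM + 0.1) or log2(TPM + 1), other filters and scaling, and each library left out in turn. Scripts were tested on simulated data. Gene positions are GENCODE coordinates of GRCh38, matched by identifier.

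Replicates with the same number deviated together in all 6 pairs of groups (Pearson r across genes 0.28 to 0.71, 0.58 for the groups compared here). With 2 libraries per group each pair gives 1 value. The labels do not say what a number marks, so the pairing comes from the data. The fit without the block is the main one, and blocked values stand beside the counts and calls they change most.

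Named were ABCC4, the 15 largest rises and 15 largest falls (called, protein-coding, a mean of 5 CPM or more in either group, no overlap of libraries), called members of 40 gene lists (952 symbols, all matched), listed genes whose role is described, and up to 8 genes per direction for the interaction. A listed gene is not reported here. The members and lists were chosen with earlier results of these data known.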

Additional observations from a re-analysis of the deposited data

Results flagged for a closer look

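Values for 2 genes were singled out because the Ceefourin 2 effect differed between cells with and without PMA by the interaction test of edgeR. APOL3 had a difference of 2.31 on the log2 scale (SE 0.22, adjusted p = 0.047), with a rise in 2 of 2 libraries under PMA and lower values in 2 of 2 without it. S100A4 had a difference of 1.68 (SE 0.15, adjusted p = 0.047), from a fall without PMA. Both calls were lost in each of the 8 fits that left out 1 library. Groups of 2 libraries are too small for a test of single outlying libraries.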

How the results depend on the processing

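For the Ceefourin 2 effect in PMA cells (159 higher, 158 lower), 821 and 661 genes were called with the replicate block, 450 and 349 by DESeq2, and 685 and 526 without a count filter. Limma on log2(TPM + 0.1) called 69 higher. Leaving out 1 library gave 12 to 169 higher and 9 to 155 lower, and where an arm kept 1 library it was assumed to vary like the other groups. Leaving out both high-mitochondrial libraries, chosen after seeing the data, left 1 library against 1 and hardly any call. That cannot be told apart from the loss of replicates. For the effect without PMA the block called 807 and 623, DESeq2 507 and 330, no filter 696 and 478, leaving out 1 library 14 to 103 and 16 to 85, and leaving out both 23 and 18. For the difference (2 higher, 0 lower) the block called 114 and 133, DESeq2 82 and 128, no filter 171 and 243, size factors 4 and 1, the 1 CPM filter 0 and 0, log2(TPM + 0.1) 5 and 3, log2(TPM + 1) 10 and 9, leaving out 1 library 0 to 2 and 0 to 1, and leaving out both 0 and 0. APOL3 and S100A4 each lost the call for the difference in all 8 fits without 1 library (APOL3 adjusted p 0.0721 to 0.239, S100A4 0.0596 to 0.239) and with the 1 CPM filter (0.0585 for both). For PMA against untreated, log2(TPM + 1) called 3197 higher and leaving out both 2884 lower. The cause of these shifts was not tested.

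All 85 called genes that the naming rule gave kept their direction in each alternative and stayed called with the block and in DESeq2. Libraries of the compared groups did not overlap in these genes, so a turned sign was hardly possible. Uncalled genes with a turned sign were NQO1 (0.0032 on log2(TPM + 0.1), -0.41 to 0.41 leaving out 1 library, 0.20 without both), ITGA2B (-0.040 to 0.19 leaving out 1 library) and GFI1B (-0.30 to 0.026).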

Other observations

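The called genes below belong to no list above and were picked after their values were seen, so they stand for no group of genes. CD84, a self-binding receptor of the SLAM family, fell from 193 and 219 to 84.2 and 96.9 CPM (log2 fold change -1.19, edgeR adjusted p = 0.00402). PTPRC, the phosphatase CD45, fell from 260.3 and 305 to 152 and 184 CPM (-0.75, 0.0349), and PTPN6, the phosphatase SHP-1, fell from 107 and 110.3 to 60.9 and 55.3 CPM (-0.90, 0.0151). TEC, a tyrosine kinase, fell from 20.9 and 23.5 to 10.1 and 10.5 CPM (-1.11, 0.00501), and the sialophorin gene SPN fell from 281 and 310.1 to 198 and 198 CPM (-0.58, 0.0159). Among these, CD84 (-1.38) and SPN (-0.48) also fell with Ceefourin 2 alone.

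Other genes picked in the same way rose. IGFBP4, which binds insulin-like growth factors, rose from 213 and 189 to 645 and 505 CPM (log2 fold change 1.52, edgeR adjusted p = 0.00307). EREG, a ligand of the EGF receptor, rose from 218 and 205 to 426 and 380.2 CPM (0.93, 0.00402), and WWTR1, the Hippo pathway coactivator TAZ, rose from 32.2 and 28.9 to 72.1 and 68.5 CPM (1.20, 0.00402). The interleukin 4 receptor gene IL4R rose from 106 and 114 to 190.2 and 194 CPM (0.80, 0.00453), and the glucose transporter gene SLC2A1 rose from 665 and 645 to 985 and 1189 CPM (0.73, 0.0221). LUZP6, which overlaps MTPN, was called higher from 0 and 0 CPM to 0.528 and 0.713 CPM, while MTPN stood at 409 and 435 against 424 and 446 CPM, so its reads may be shared with MTPN. Of the 11 called genes of these paragraphs, IGFBP4 and EREG stayed called in each of the 8 fits that left out 1 library. CD84, WWTR1 and IL4R lost the call without PMA plus Ceefourin 2 replicate 1, TEC also without PMA replicate 2, SPN in 3 fits, and PTPRC, PTPN6, SLC2A1 and LUZP6 in 4.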
